A study of Mus musculus with 46 samples.

Results

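A set of 10 genes of the lung's gas-exchanging lining was followed through 72 h of hyperoxia in Nrf2 mutant and wild type mice. The genes were taken by symbol from the annotation of the arrays and make up 10 of the 13411 genes tested. They are the surfactant proteins Sftpa1, Sftpb, Sftpc and Sftpd, the type 2 cell transporters Abca3 and Slc34a2, and the genes Ager, Akap5, Pdpn and Hopx of type 1 cells. Together they had 13 probe sets, 7 on array type A, 2 on B and 4 on C, and all 13 passed the filter on dim signals.

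The study measured RNA of whole mouse lung with 46 arrays of 3 types, called A, B and C here. There were 8 groups: mutant mice, whose mutated gene the labels give as Nrf2, sampled at 0 h or kept in 100% oxygen for 24, 48 or 72 h, and wild type mice of those same 4 times. Each group had 2 replicates, named 1a and 1b in the labels, on each array type, but type A held only replicate 1b of the mutant at 0 h and of the wild type at 24 h. The labels give neither the strain, age and sex of the mice nor the kind of Nrf2 mutation, and they do not say whether 1a and 1b were separate animals, so p-values measure the spread between these samples, which may be technical.

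The alveolus is lined by thin type 1 cells, across which gas diffuses, and by cuboidal type 2 cells, which make surfactant and renew the lining. Surfactant is a film of phospholipid and protein that keeps alveoli from collapsing, and it is packed in lamellar bodies before it is secreted. Breathing pure oxygen for days injures this lining. Nrf2 is the product of Nfe2l2 and switches on genes of antioxidant defence.

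Values are the deposited intensities of each array. Differences are log2 differences ± SE from limma, taken after adding the 25th percentile of the array type to each intensity, and folds are those of the fitted log2 values. A probe set was called at a Benjamini-Hochberg adjusted p under 0.05 over all 26833 tested probe sets. Different probe sets bind with different efficiency, so no level of one gene is set against that of another. In RNA of whole lung, fewer cells of a type and less RNA per cell cannot be told apart.

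Several facts of the whole series bear on these genes. The probe set of Nfe2l2 lay between 302.5 and 448.4 on the 7 mutant arrays of type A, against 2428 to 4488 on the 7 wild type arrays. The mutant 0 h arrays stood apart from the rest. The ratio of the 3' to the 5' Gapdh control, which rises as RNA is degraded, was 1.67 to 2.26 on these 5 arrays, against 0.858 to 1.54 on the other 41. The summed intensity of 5 squamous epithelium markers (of 12 listed) was 21223 on the mutant 0 h array of type A, against 1461 to 2703 on the others. The 2 on type B summed to 6398 to 7621 on the mutant 0 h arrays, against 699 to 2128. The 3 on type C did not stand apart, at 631 to 1064 against 267 to 1100. For 4 skeletal muscle markers (of 8 listed) on type A the sum was 24825 at mutant 0 h, against 527 to 2516. Called changes of the 10 genes in the mutant relative to 0 h, and counts of gene lists in the mutant relative to 0 h, are therefore also given relative to the wild type at 0 h. The part of these arrays in the results was not tested further. The oxygen groups of a genotype share their 0 h arrays, so these comparisons are not independent of each other.

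The promoters of 5 of the genes with a called change are shown as a reference for the changes described below. They are the 250 bases before the RefSeq start, from the GRCm38.p6 mouse genome, 5′ to 3′ on the gene's strand. In the RefSeq promoter table used here, 8 of the 10 genes were matched. Abca3 and Slc34a2 are shown because their levels moved together, Sftpa1 for a surfactant protein with a called change, and Pdpn and Hopx because they fell. Capitals mark matches to motifs searched on both strands.
Sftpa1, chr14:41131538-41131787, plus strand: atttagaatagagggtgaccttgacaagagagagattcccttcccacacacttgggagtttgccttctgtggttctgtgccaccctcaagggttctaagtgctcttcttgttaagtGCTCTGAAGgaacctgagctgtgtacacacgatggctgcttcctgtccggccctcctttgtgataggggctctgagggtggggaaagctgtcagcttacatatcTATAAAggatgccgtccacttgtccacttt
Abca3, chr17:24351773-24352022, plus strand: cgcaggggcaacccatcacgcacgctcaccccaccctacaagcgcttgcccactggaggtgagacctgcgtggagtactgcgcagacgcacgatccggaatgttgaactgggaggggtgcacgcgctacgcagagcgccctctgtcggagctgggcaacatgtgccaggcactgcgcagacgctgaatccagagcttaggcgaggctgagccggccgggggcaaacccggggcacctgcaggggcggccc
Slc34a2, chr5:53049103-53049352, plus strand: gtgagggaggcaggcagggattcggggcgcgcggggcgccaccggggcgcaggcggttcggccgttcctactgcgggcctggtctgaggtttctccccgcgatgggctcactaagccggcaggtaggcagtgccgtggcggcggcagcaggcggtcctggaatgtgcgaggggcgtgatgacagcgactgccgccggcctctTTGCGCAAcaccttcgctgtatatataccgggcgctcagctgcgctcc
Pdpn, chr4:143299565-143299814, minus strand: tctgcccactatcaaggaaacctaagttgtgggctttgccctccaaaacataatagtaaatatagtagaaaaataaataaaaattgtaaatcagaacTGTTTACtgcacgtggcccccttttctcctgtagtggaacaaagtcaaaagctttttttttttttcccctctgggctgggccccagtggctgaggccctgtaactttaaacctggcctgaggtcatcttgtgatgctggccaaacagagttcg
Hopx, first RefSeq start, chr5:77115124-77115373, minus strand: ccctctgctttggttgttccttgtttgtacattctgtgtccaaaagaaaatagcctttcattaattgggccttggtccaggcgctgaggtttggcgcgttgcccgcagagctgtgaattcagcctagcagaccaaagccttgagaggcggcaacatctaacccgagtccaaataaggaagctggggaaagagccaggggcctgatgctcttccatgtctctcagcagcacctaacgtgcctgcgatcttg
Hopx, other RefSeq start, chr5:77095268-77095517, minus strand: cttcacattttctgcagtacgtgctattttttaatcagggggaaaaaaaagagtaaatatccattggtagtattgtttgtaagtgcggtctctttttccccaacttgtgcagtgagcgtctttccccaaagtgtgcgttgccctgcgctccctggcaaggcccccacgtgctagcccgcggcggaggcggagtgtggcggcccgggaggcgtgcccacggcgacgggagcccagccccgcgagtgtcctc

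The Sftpa1 promoter held 1 match to GCNCTNNAG, a motif of the lung factor NKX2-1, starting 134 bases before the start, and 1 TATAAA starting 30 bases before it. Slc34a2 held 1 match to TTGCNNAA, a motif of C/EBP factors, starting 48 bases before the start. Pdpn held 1 TGTTTAC, a forkhead motif, starting 153 bases before it. The windows of Abca3 and Hopx held none of the motifs searched. The 9 promoters found for the 10 genes held no match to TGACNNNGC, the core of the antioxidant response element that Nrf2 binds. Over all 32841 mouse promoters of this length, 14.2% held GCNCTNNAG, 12.4% TATAAA, 9.57% TTGCNNAA, 3.17% TGTTTAC and 10.2% TGACNNNGC, so a match describes the letters only. Sftpb, whose promoter is not shown, held 2 matches to GCNCTNNAG that overlapped each other, 1 on each strand, and no motif overlapped another in the sequences shown.

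The lipid transporter Abca3 and the phosphate transporter Slc34a2 gave the clearest time course of the type 2 cell genes. Both were higher after 24 h of oxygen than at 0 h. In the mutant, both fell again between 48 and 72 h, by more than 2-fold.

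Abca3 encodes the pump that loads phospholipid into lamellar bodies. On its B probe set, Abca3 intensity in the mutant was 7926 and 6171 at 0 h, 15947 and 14877 at 24 h, 12256 and 11644 at 48 h, and 6133 and 5206 at 72 h. Abca3 in the wild type was 6719 and 6608 at 0 h, 13472 and 14726 at 24 h, 11992 and 10969 at 48 h, and 8000 and 7573 at 72 h. All 24 h and 48 h arrays of both genotypes lay above all 0 h and 72 h arrays. Abca3 rose 2.18-fold in the mutant at 24 h relative to 0 h (log2 1.12 ± 0.17, adjusted p = 0.000615) and 2.09-fold in the wild type (log2 1.07 ± 0.17, adjusted p = 0.00886). At 48 h it was 1.70-fold higher in the mutant (log2 0.76 ± 0.17, adjusted p = 0.00821) and 1.71-fold higher in the wild type (log2 0.77 ± 0.17, adjusted p = 0.0172). These calls met different backgrounds, since 24.4% of all probe sets were called in the mutant at 24 h, 17.9% in the mutant at 48 h, 1.72% in the wild type at 24 h and 6.64% in the wild type at 48 h.

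From 48 to 72 h, Abca3 fell 2.09-fold in the mutant (log2 -1.06 ± 0.17, adjusted p = 0.00711), where 2.05% of all probe sets were called. The same step in the wild type was -0.55 ± 0.17 (adjusted p = 0.182) and did not pass the test. The difference between these steps, mutant minus wild type, was -0.51 with a 95% confidence interval of -1.02 to -0.0014 (adjusted p = 0.725), and 0.0335% of all probe sets were called for it. By group mean, the order from high to low was mutant 24 h, wild type 24 h, mutant 48 h, wild type 48 h, wild type 72 h, mutant 0 h, wild type 0 h and mutant 72 h. The gap between the 48 h and the 72 h groups in that order was 3.32 times the residual SD of the fit. The other gaps were between 0.35 and 1.42 times it, so neighbours there did not differ beyond their spread.

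Relative to the wild type at 0 h the mutant's rises in Abca3 at 24 and 48 h were also called. The wild type rise at 24 h lost its call without wild type 0 h replicate 1a (adjusted p = 0.0544), without wild type 0 h replicate 1b (adjusted p = 0.0691) or without wild type 24 h replicate 1b (adjusted p = 0.0859), and that at 48 h without any 1 of its 4 arrays (adjusted p between 0.0732 and 0.128). The mutant rise at 48 h lost it without mutant 0 h replicate 1b (adjusted p = 0.075) or mutant 48 h replicate 1a (adjusted p = 0.0572), and the mutant fall to 72 h without mutant 48 h replicate 1a (adjusted p = 0.0722) or mutant 72 h replicate 1b (adjusted p = 0.0682). The rise in the mutant at 24 h passed in all 16 such fits.

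A second Abca3 probe set, on array type C, did not repeat this course. Its intensities in the mutant were 1426 and 1523 at 0 h, 1459 and 1508 at 24 h, 1554 and 1200 at 48 h, and 1480 and 1211 at 72 h. Wild type intensities were 1316 and 1361 at 0 h, 1765 and 2483 at 24 h, 1556 and 1535 at 48 h, and 916.5 and 1542 at 72 h. The mutant groups overlapped throughout, and the wild type 24 h arrays were the highest of all 16. Its difference from 0 h at 24 h was 0.01 ± 0.28 in the mutant (adjusted p = 0.986) and 0.61 ± 0.28 in the wild type (adjusted p = 0.343). The disagreement between the Abca3 probe sets was not tested.

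Slc34a2 encodes the sodium-dependent phosphate transporter of the apical membrane of type 2 cells. Its intensity in the mutant was 8646 at 0 h, 15341 and 17229 at 24 h, 15032 and 12369 at 48 h, and 5549 and 6148 at 72 h. Slc34a2 in the wild type was 9291 and 10034 at 0 h, 15866 at 24 h, 12440 and 14490 at 48 h, and 8721 and 9165 at 72 h. Every 24 h and 48 h array was above every 0 h and 72 h array, and the mutant 72 h arrays were the lowest of all 14. Slc34a2 rose 1.87-fold in the mutant at 24 h (log2 0.90 ± 0.20, adjusted p = 0.00969). At 24 h the wild type difference was 0.71 ± 0.20 (adjusted p = 0.123), with 1 array at 24 h.

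Slc34a2 fell 2.32-fold in the mutant from 48 to 72 h (log2 -1.21 ± 0.17, adjusted p = 0.00639), and in the wild type the step was -0.58 ± 0.17 (adjusted p = 0.178). The difference between these steps was -0.63, with a 95% confidence interval of -1.15 to -0.11 and an adjusted p of 0.642. At 72 h the mutant minus wild type difference of Slc34a2 was -0.61 ± 0.17 (adjusted p = 0.19), with no overlap of arrays, where 0.82% of all probe sets were called. Relative to the wild type at 0 h, Slc34a2 was called in the mutant at 24 h as before, and at 72 h as lower (log2 -0.72, adjusted p = 0.0182). Relative to the mutant's own 0 h array the value at 72 h was -0.56 ± 0.20 (adjusted p = 0.078). The fall from 48 to 72 h lost its call without mutant 48 h replicate 1a (adjusted p = 0.0645).

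**Figure D1:**
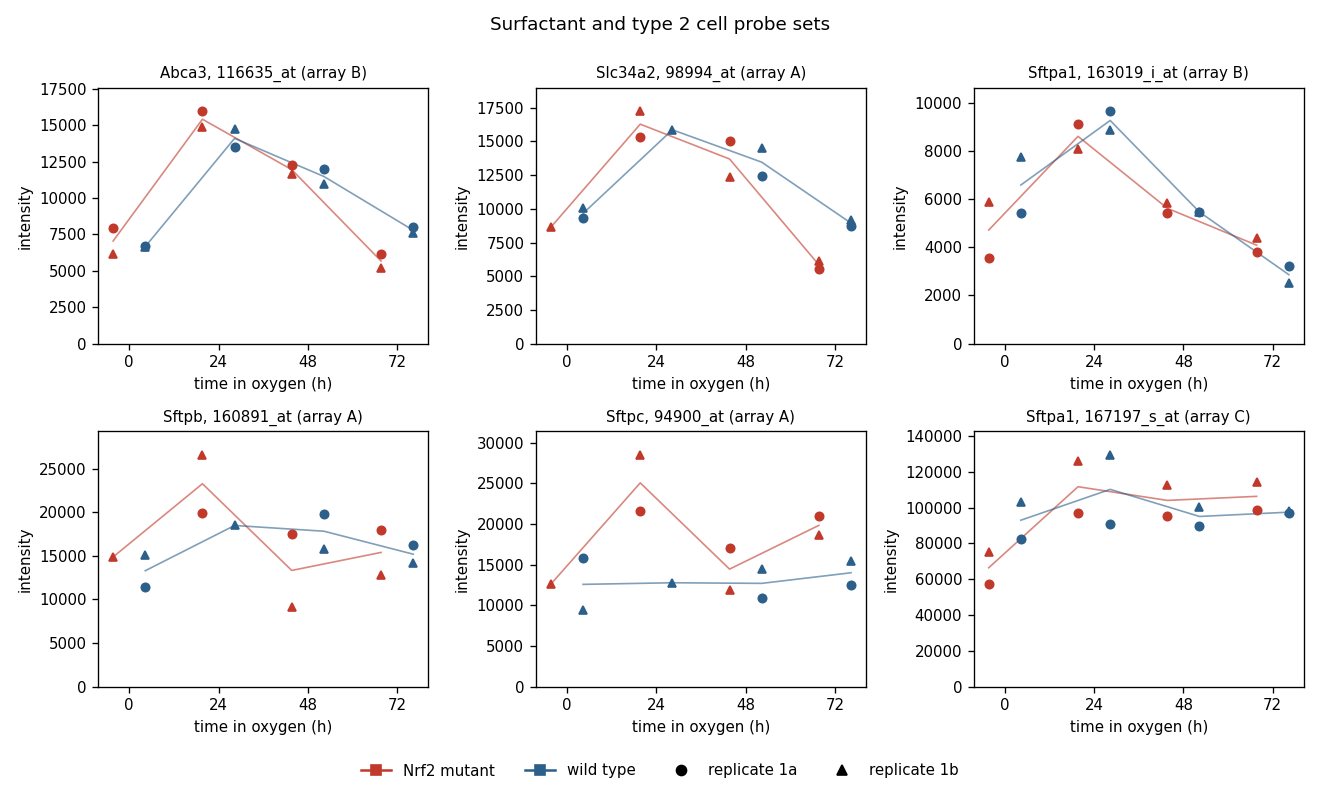
Deposited intensity (y axis, linear, from 0) of 6 surfactant and type 2 cell probe sets against time in oxygen (x axis, h); red is Nrf2 mutant and blue wild type, circles are replicate 1a, triangles replicate 1b, and lines join group means. Abca3 is at 10969 or more on every 24 h and 48 h array and at 8000 or less on every other array, Slc34a2 at 12369 or more and at 10034 or less, while Sftpb and Sftpc show wide gaps between replicates.

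Over the 14 samples with both array types A and B, log2 levels of Slc34a2 and Abca3 (B probe set) had a Pearson r of 0.922 and a Spearman rho of 0.925. Without the 2 samples farthest from the median, r was 0.901. Over the 8 group means r was 0.961, but the differences between replicates of a group did not go together (r = -0.32 over 6 pairs). These samples share the time course, so the correlation describes that course. Non-members with the most similar course, chosen after values were seen, were Fzd2 (r = 0.949), Yy1 (0.948) and Antxr2 (0.943) for Slc34a2 over 14 arrays, and Cnnm2 (0.932), Resf1 (0.926) and Mlc1 (0.925) for Abca3 over 16 arrays.

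The hydrophobic surfactant proteins Sftpb and Sftpc, small proteins that spread phospholipid at the air-liquid surface, had no called change in the 17 comparisons, with smallest adjusted p-values of 0.262 for Sftpb and 0.0669 for Sftpc. Sftpb intensity in the mutant was 14877 at 0 h, 19920 and 26618 at 24 h, 17539 and 9117 at 48 h, and 18014 and 12773 at 72 h. Sftpb in the wild type was 11461 and 15133 at 0 h, 18484 at 24 h, 19812 and 15840 at 48 h, and 16231 and 14155 at 72 h. The mutant 24 h arrays were the 2 highest, and the other groups overlapped widely. The difference of Sftpb between 72 h and 0 h was 0.03 ± 0.38 in the mutant (adjusted p = 0.972) and 0.20 ± 0.31 in the wild type (adjusted p = 0.778). Its 95% confidence interval was -0.81 to 0.87 in the mutant and -0.48 to 0.89 in the wild type, so a change of less than about this size was not detectable.

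Sftpc, made in the adult lung by type 2 cells alone, had intensities of 12615 at 0 h, 21573 and 28541 at 24 h, 17029 and 11874 at 48 h, and 21038 and 18623 at 72 h in the mutant. Sftpc in the wild type was 15791 and 9365 at 0 h, 12776 at 24 h, 10874 and 14526 at 48 h, and 12523 and 15485 at 72 h. The 24 h and 72 h mutant arrays lay above all wild type arrays, and the 48 h mutant arrays overlapped them. At 24 h the mutant minus wild type difference of Sftpc was 0.95 ± 0.35 (adjusted p = 0.411), where 0.157% of all probe sets were called. Over the mean of 24, 48 and 72 h it was 0.55 ± 0.18 (adjusted p = 0.242), against 1.25% of all probe sets called. Relative to 0 h, Sftpc in the mutant at 24 h was 0.97 ± 0.35 (adjusted p = 0.0669), and it passed the test at 1.02 (adjusted p = 0.0461) when set against the wild type at 0 h. With the mutant's own 0 h array it was also called under quantile normalization (adjusted p = 0.0364), with a filter at the 60th percentile (adjusted p = 0.0455), with eBayes using trend and robust (adjusted p = 0.0378) and without wild type 0 h replicate 1a or 1b (adjusted p = 0.0427 each). Sftpb and Sftpc had a Pearson r of 0.451 and a Spearman rho of 0.332 over 14 arrays, and r was 0.0127 without the 2 arrays farthest from the median.

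By the rule used for likeness, the non-members most similar to Sftpb over the 14 arrays of type A were Lrpprc (r = 0.816), Xirp1 (0.785), Chad (0.779), Cd4 (0.773) and Cdc23 (0.763), out of 7640 probe sets compared.

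The collectins Sftpa1 and Sftpd bind microbes in the alveolar fluid. Sftpa1 had 3 probe sets, which did not share 1 course. Sftpd was too dim on these arrays to be described by folds.

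The B probe set of Sftpa1 had intensities in the mutant of 3557 and 5866 at 0 h, 9103 and 8095 at 24 h, 5402 and 5825 at 48 h, and 3796 and 4370 at 72 h. The wild type arrays read 5409 and 7755 at 0 h, 9633 and 8884 at 24 h, 5444 and 5472 at 48 h, and 3208 and 2513 at 72 h. The 24 h arrays of both genotypes were the 4 highest, and the wild type 72 h arrays were the lowest of 16. In the mutant at 24 h this Sftpa1 probe set rose 1.85-fold relative to 0 h (log2 0.89 ± 0.24, adjusted p = 0.0171), and in the wild type the difference was 0.51 ± 0.24 (adjusted p = 0.347). At 72 h it fell 2.23-fold in the wild type (log2 -1.16 ± 0.24, adjusted p = 0.0112), where 7.83% of all probe sets were called. In the mutant at 72 h the difference was -0.16 ± 0.24 (adjusted p = 0.692). The genotype difference in the change from 0 to 72 h was 0.99, with a 95% confidence interval of 0.26 to 1.72 and an adjusted p of 0.182, against 1.36% of all probe sets called.

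Set against the wild type at 0 h, the mutant's 24 h value of this Sftpa1 probe set was 0.40 (adjusted p = 0.331) and no longer passed, a shift of more than 1.5 times. It also lost its call without mutant 0 h replicate 1a (log2 0.54, adjusted p = 0.136) or mutant 24 h replicate 1a (adjusted p = 0.0948). The wild type fall at 72 h lost it without wild type 0 h replicate 1b (adjusted p = 0.107) or wild type 72 h replicate 1b (adjusted p = 0.1).

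The brighter C probe set of Sftpa1, whose name carries the suffix for probes shared by several transcripts, had intensities in the mutant of 57598 and 75227 at 0 h, 97244 and 126101 at 24 h, 95476 and 112592 at 48 h, and 98532 and 114055 at 72 h. Wild type intensities were 82678 and 103274 at 0 h, 90746 and 129648 at 24 h, 89602 and 100518 at 48 h, and 96922 and 97992 at 72 h. Only the mutant 0 h arrays stood apart, at the low end. The wild type difference between 72 h and 0 h was 0.08 ± 0.27 (adjusted p = 0.914), and its sign turned under quantile normalization (log2 -0.04). The B probe set, which has both called changes of Sftpa1, carries a suffix as well (i_at). Only the name of the dimmer C probe set ends in a plain at. The dimmer C probe set of Sftpa1 ranged from 977 to 1917 and had no called change. At 72 h relative to 0 h it was -0.18 ± 0.27 in the mutant (adjusted p = 0.71) and -0.32 ± 0.27 in the wild type (adjusted p = 0.557).

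Sftpd exceeded the filter value of 195 on 6 of 14 arrays. Its intensity in the mutant was 66 at 0 h, 288 and 222 at 24 h, 119 and 111 at 48 h, and 403 and 81 at 72 h. Sftpd in the wild type was 267 and 101 at 0 h, 126 at 24 h, 149 and 318 at 48 h, and 288 and 94 at 72 h. Replicates of Sftpd differed by as much as the groups, and none of its differences was called in the fit of all 8 groups.

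The 4 type 1 cell genes did not move together. In the mutant at 24 h, Ager and Akap5 rose while Pdpn and Hopx fell. In the wild type, Pdpn alone of the 4 passed the test relative to 0 h, and it fell.

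Ager encodes RAGE, a multiligand receptor held in the basolateral membrane of type 1 cells. Its intensity in the mutant was 12501 at 0 h, 19718 and 24182 at 24 h, 23005 and 15947 at 48 h, and 15218 and 15332 at 72 h. Ager in the wild type was 17120 and 15557 at 0 h, 19457 at 24 h, 16752 and 16408 at 48 h, and 14172 and 14026 at 72 h. The mutant 0 h array was the lowest of 14, and wild type 0 h and 48 h arrays overlapped. Ager rose 1.74-fold in the mutant at 24 h relative to 0 h (log2 0.80 ± 0.24, adjusted p = 0.0318). Set against the wild type at 0 h the value of Ager was 0.42 (adjusted p = 0.209). Leaving out replicate 1b of the mutant at 24 h gave 0.65 (adjusted p = 0.134). Wild type differences from 0 h were 0.25 ± 0.24 at 24 h (adjusted p = 0.691), 0.02 ± 0.19 at 48 h (adjusted p = 0.97) and -0.21 ± 0.19 at 72 h (adjusted p = 0.597).

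Non-members most similar to Ager over the 14 arrays of type A were Spock2 (r = 0.918), Ehmt2 (0.918), Tbx2 (0.901), Hlx (0.88) and Fah (0.876), by the same rule as for Sftpb.

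Akap5 encodes an anchoring protein that holds protein kinase A and calcineurin at membranes. Its intensity in the mutant was 1422 and 1679 at 0 h, 4361 and 3202 at 24 h, 3228 and 3058 at 48 h, and 2701 and 2305 at 72 h. Akap5 in the wild type was 2437 and 1963 at 0 h, 2654 and 2374 at 24 h, 2900 and 2274 at 48 h, and 2487 and 2233 at 72 h. The wild type groups overlapped at all times, and the mutant 0 h arrays were the lowest of 16. Akap5 rose 2.33-fold in the mutant at 24 h (log2 1.22 ± 0.26, adjusted p = 0.00504) and 1.97-fold at 48 h (log2 0.98 ± 0.26, adjusted p = 0.0209). Set against the wild type at 0 h these Akap5 values were 0.75 (adjusted p = 0.0888) and 0.50 (adjusted p = 0.294), and neither passed. The 24 h call of Akap5 was lost without mutant 24 h replicate 1a (adjusted p = 0.0519), and the 48 h call without any 1 of its 4 arrays (adjusted p between 0.0583 and 0.103).

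Pdpn encodes podoplanin, a mucin-like membrane protein of the apical surface of type 1 cells, also made by lymphatic endothelium, mesothelium and some fibroblasts and keratinocytes. Its intensity in the mutant was 2598 at 0 h, 1220 and 1205 at 24 h, 1340 and 2038 at 48 h, and 900 and 1127 at 72 h. Pdpn in the wild type was 2325 and 2830 at 0 h, 2077 at 24 h, 1094 and 1193 at 48 h, and 1238 and 1405 at 72 h. All 0 h arrays were above all arrays at later times. Pdpn fell 2.07-fold in the mutant at 24 h (log2 -1.05 ± 0.26, adjusted p = 0.0147) and 2.46-fold at 72 h (log2 -1.30 ± 0.26, adjusted p = 0.00531), where 21.5% of all probe sets were called. Pdpn also fell in the wild type, 2.17-fold at 48 h (log2 -1.11 ± 0.21, adjusted p = 0.0133) and 1.89-fold at 72 h (log2 -0.92 ± 0.21, adjusted p = 0.0259).

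Both falls of Pdpn in the mutant were also called against the wild type at 0 h. The mutant fall at 72 h passed in all 15 fits that left out 1 replicate, and that at 24 h in 13, being lost without mutant 24 h replicate 1a (adjusted p = 0.0514) or 1b (adjusted p = 0.052). The wild type fall at 48 h lost its call without wild type 0 h replicate 1b (adjusted p = 0.105) or either 48 h array (adjusted p = 0.0974 and 0.0651), and that at 72 h without any 1 of its 4 arrays (adjusted p between 0.062 and 0.157). At 24 h the mutant minus wild type difference of Pdpn was -0.74 ± 0.26 (adjusted p = 0.382), at 48 h it was 0.51 ± 0.21 (adjusted p = 0.502), and neither passed.

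Markers of other cells that express Pdpn had their own courses. Of 5 lymphatic endothelial markers, 2 passed the filter, and their group means were higher at 72 h than at 0 h. Lyve1 averaged 21398 intensity units at 72 h and 1106 at 0 h in the mutant, and 21699 at 72 h and 2018 at 0 h in the wild type. Of 5 mesothelial markers, 3 passed the filter, all on type A. Their sum on the wild type arrays was 5581 to 6886 at 0 h and 6363 at 24 h. It was lowest at 48 h, at 4723 to 4938, and was 6530 to 7049 at 72 h. On the mutant arrays the mesothelial sum was 4300 at 0 h and 6657 to 7211 at 24 h. It was 7230 to 8259 at 48 h and 6599 to 8259 at 72 h. Krt19, also in the list of transitional genes below, was the largest part of the mesothelial sum in every group. In the wild type, from 0 to 72 h, the mean of Krt19 went from 3941 to 5200, Upk3b from 1900 to 1287 and Msln from 393 to 303. In the mutant Krt19 went from 2253 to 5193, Upk3b from 1702 to 1814 and Msln from 345 to 423. Pdpn was lower than at 0 h on all later arrays of both genotypes. The sum of 7 fibroblast markers on the wild type arrays was 13355 to 15622 at 0 h and 26788 at 24 h. It was 20745 to 21871 at 48 h and 16499 to 19592 at 72 h. On the mutant arrays the fibroblast sum was 22058 at 0 h and 24851 to 26894.5 at 24 h. It was 30649 to 30976 at 48 h and 24473 to 28736 at 72 h. None of these sums was 0, and the part of these cells in the Pdpn values was not tested.

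Hopx encodes a homeodomain-like protein without DNA binding that marks type 1 cells and is also made in heart muscle and keratinocytes. It showed the widest change of the 10 genes between 0 h and 72 h in the mutant. Its intensity in the mutant was 23424 at 0 h, 10479 and 12766 at 24 h, 15028 and 13116 at 48 h, and 7130 and 6007 at 72 h. Hopx in the wild type was 17272 and 14815 at 0 h, 18042 at 24 h, 10983 and 15392 at 48 h, and 12737 and 13940 at 72 h. The mutant 72 h arrays were the lowest of 14 and the mutant 0 h array the highest, while the wild type 48 h arrays overlapped those of 0 h and of 72 h.

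Hopx fell 2.02-fold in the mutant at 24 h relative to 0 h (log2 -1.01 ± 0.25, adjusted p = 0.0148) and 3.55-fold at 72 h (log2 -1.83 ± 0.25, adjusted p = 0.000655). From 48 to 72 h in the mutant, a step that does not use the 0 h array, it fell 2.13-fold (log2 -1.09 ± 0.20, adjusted p = 0.0241). The wild type difference of Hopx at 72 h relative to 0 h was -0.26 ± 0.20 (adjusted p = 0.523), and the step from 48 to 72 h was 0.04 ± 0.20 (adjusted p = 0.973). The change from 0 to 72 h differed between genotypes by -1.56 (95% confidence interval -2.28 to -0.85, adjusted p = 0.048), the only called genotype difference among the 10 genes. That call was lost in 14 of the 15 fits that left out 1 replicate and under 4 of 7 other settings. At 72 h itself, mutant minus wild type was -1.02 ± 0.20 (adjusted p = 0.0554), just outside the threshold. From high to low, the group means of Hopx ran mutant 0 h, wild type 24 h, wild type 0 h, mutant 48 h, wild type 72 h, wild type 48 h, mutant 24 h and mutant 72 h. The last gap was 4.0 times the residual SD, the first 1.84 times, and those between were 0.17 to 0.92 times it.

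The mutant fall of Hopx at 72 h was also called against the wild type at 0 h (log2 -1.28, adjusted p = 0.00269) and in all 15 fits that left out 1 replicate. The fall at 24 h was not called against the wild type at 0 h (log2 -0.47, adjusted p = 0.187), under quantile normalization (log2 -0.68, adjusted p = 0.0543) or without mutant 24 h replicate 1a (adjusted p = 0.0749). The step from 48 to 72 h lost its call without any 1 of its 4 arrays (adjusted p between 0.0735 and 0.164). The sum of 7 heart muscle markers on the mutant arrays was 44405 at 0 h and 20196 to 21951 at 24 h. It was 11080 to 12821 at 48 h and 10157 to 10504 at 72 h. The wild type arrays summed to 35485 to 37436 at 0 h and 22099 at 24 h. Their heart muscle sums were 12511 to 12945 at 48 h and 9233 to 9472 at 72 h. The part of heart muscle RNA and of the squamous markers given above in the Hopx values was not tested. Non-members most like Hopx over 14 arrays, chosen after values were seen, were Bex4 (r = 0.894), Rsrp1 (0.892) and Fam32a (0.876).

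**Figure D2:**
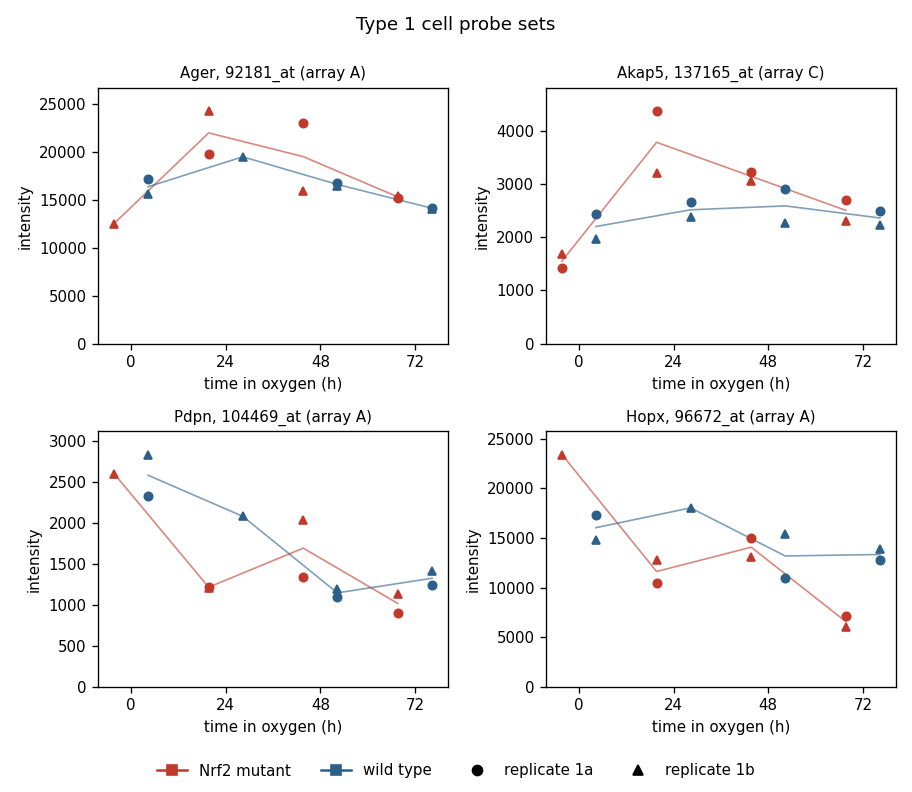
Deposited intensity (y axis, linear, from 0) of the probe sets of Ager, Akap5, Pdpn and Hopx against time in oxygen (x axis, h), with red for Nrf2 mutant, blue for wild type, circles for replicate 1a, triangles for 1b and lines through group means. Pdpn is highest at 0 h in both genotypes, and Hopx is 6007 and 7130 on the mutant 72 h arrays, below every other array.

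Pdpn and Hopx had a Pearson r of 0.719 and a Spearman rho of 0.745 over 14 arrays, and r was 0.687 without the 2 arrays farthest from the median. The differences between replicates of a group went opposite ways for Pdpn and Hopx (r = -0.74 over 6 pairs). Ager and Slc34a2 had an r of 0.724 and a rho of 0.864, and r was 0.853 for their replicate differences over 6 pairs. Arrays of a group share their time and genotype. As the plot of Pdpn against Hopx shows, the wild type 48 h and 72 h arrays had low Pdpn with Hopx still at 10983 to 15392.

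**Figure D3:**
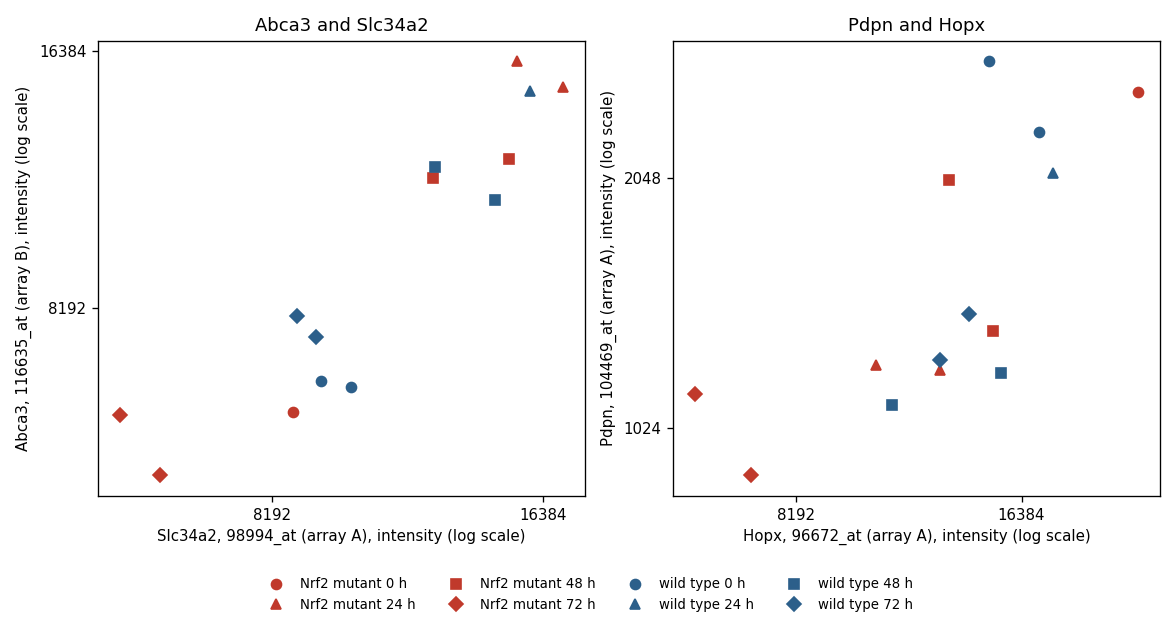
Intensities of Abca3 (B probe set) against Slc34a2 (left, 14 samples) and of Pdpn against Hopx (right, 14 arrays), both axes on a log scale; red is Nrf2 mutant, blue wild type, and the shape of the point gives the time in oxygen. On the left the 24 h and 48 h samples of both genotypes form the upper right group and the mutant 72 h samples the lower left end.

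Counted over the 13 probe sets, 7 were called in the mutant at 24 h relative to 0 h, 5 higher and 2 lower, where 12.2% of all probe sets were called higher and 12.1% lower. At 48 h in the mutant 2 were called, both higher, against 9.61% of all probe sets called higher. At 72 h in the mutant 2 were called, both lower, against 10.5% of all called lower. The wild type had 1 called at 24 h, which was higher (0.962% of all called higher), and 2 at 48 h, 1 higher (3.25% of all) and 1 lower (3.39% of all). At 72 h it had 2, both lower, against 3.57% of all called lower. The median log2 difference of the 13 was 0.80 in the mutant at 24 h and 0.25 in the wild type at 24 h, against -0.03 and -0.06 over all tested probe sets. From 48 to 72 h, 3 were called in the mutant, all lower, against 1.14% of all probe sets called lower, and none in the wild type, where 3 had an unadjusted p under 0.05 in limma and 0.596% of all probe sets were called. From 24 to 48 h none was called in the mutant (4 with an unadjusted p under 0.05, 0.645% of all called) or the wild type (2 with such a p, 0.0634% of all called).

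Between mutant and wild type none of the 13 was called by limma at 0 h, at 24 h, at 48 h or at 72 h. The change from 0 to 72 h differed between genotypes for 1 of the 13, lower in the mutant, against 0.786% of all called lower. The numbers with an unadjusted p under 0.05 were 0, 3, 1 and 3 at 0, 24, 48 and 72 h, and 2.75% of all probe sets were called at 0 h and 0.376% at 48 h. Against the wild type at 0 h, in place of the mutant's own 0 h arrays, 4 of the 13 were called in the mutant at 24 h, where 10.2% of all probe sets were called. The 24 h rises of Abca3 and Slc34a2 and the fall of Pdpn remained, Sftpc was added, and Sftpa1, Ager, Akap5 and Hopx were lost. At 48 h with this baseline 1 of the 13 was called, against 6.45% of all probe sets. At 72 h the falls of Pdpn and Hopx remained and Slc34a2 was added as lower, where 12.9% of all probe sets were called.

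**Figure D4:**
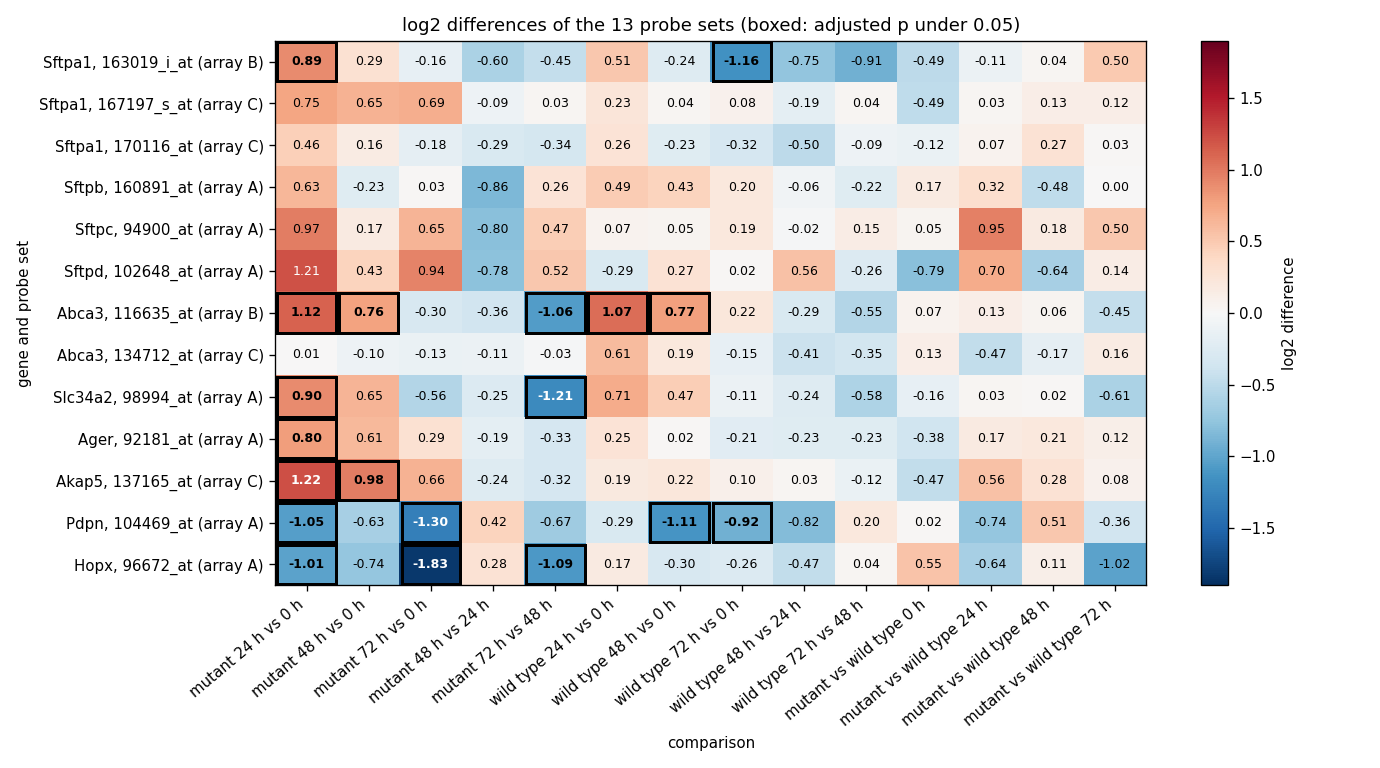
Log2 differences (colour and printed value) of the 13 probe sets (rows) in 14 comparisons (columns), with a box where the adjusted p from limma is under 0.05. The B probe set of Abca3 is boxed at 24 and 48 h in both genotypes, Pdpn is boxed in 4 columns, and no box stands in the 4 columns of mutant against wild type.

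Other genes of both cell types were read from lists chosen by role. For type 2 cells these were 14 further genes, for type 1 cells 13 tested of 14 listed, and for surfactant lipid synthesis 14 tested of 15. Each listed gene is counted by its brightest tested probe set. The shares called are over all 26833 tested probe sets, dim ones included, so counts and shares are of unlike sets. In the mutant from 48 to 72 h, 3 of 14 type 2 genes fell and none rose, with a median of -0.64 against -0.0054 over all genes and 1.14% of all probe sets called lower. They were Dram1, a lysosomal membrane protein (log2 -0.78 ± 0.16, adjusted p = 0.0278), Napsa, the protease that trims surfactant protein precursors (-0.83 ± 0.16, 0.0285), and Lpcat1, which makes the disaturated lecithin of surfactant (-0.74 ± 0.16, 0.0343). In the same step 3 of 13 type 1 genes fell, with a median of -0.48. These were Igfbp2 (-1.35 ± 0.20, adjusted p = 0.00847), Rtkn2 (-1.06 ± 0.21, 0.0251) and Emp2 (-0.79 ± 0.18, 0.0396).

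In lipid synthesis 3 of 14 fell in that step, the desaturase Scd2 (log2 -1.21 ± 0.20, adjusted p = 0.0151), the elongase Elovl1 (-1.14 ± 0.26, 0.0472) and Lpcat1, with a median of -0.36. From 48 to 72 h in the wild type, limma called no gene of these 3 lists, against 0.596% of all probe sets. At an unadjusted p under 0.05 there were 5 genes of the type 2 list, 1 of the type 1 list and 1 of the lipid list, and Napsa was -0.60 (adjusted p = 0.157). The genotype difference in this step was called for none of them by limma, against 0.0335% of all probe sets. At an unadjusted p under 0.05 there were 3, 5 and 3 genes of the lists.

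Among 19 transcription factors and receptors of the alveolar epithelium, 5 were higher and none lower in the wild type at 72 h relative to 0 h, where 7.83% of all probe sets were called. The 4 with the smallest p were Cebpd (log2 1.31 ± 0.17, adjusted p = 0.00127), Cebpb (1.27 ± 0.18, 0.00216), the surfactant-sensing receptor Adgrf5 (0.81 ± 0.15, 0.00656) and Stat3 (0.90 ± 0.16, 0.00765). In the mutant at 72 h, where 21.5% of all were called, 7 were higher and 1 lower, led by Adgrf5 (1.82 ± 0.15, adjusted p = 1.36e-05), Cebpb (2.02 ± 0.22, 0.000163), Cebpd (1.87 ± 0.20, 0.000182) and Stat3 (1.51 ± 0.20, 0.00051). Adgrf5 was lower in the mutant than in the wild type at 0 h (-0.82 ± 0.15, adjusted p = 0.0162), so its mutant change includes that difference. With the wild type at 0 h as baseline, 12.9% of all probe sets were called in the mutant at 72 h, and of the 19 genes 6 were higher and 2 lower. Adgrf5 was among the 6 (adjusted p = 0.00119). From 48 to 72 h the growth factor receptors Met (-1.62 ± 0.22, adjusted p = 0.00347) and Fgfr2 (-1.68 ± 0.21, 0.0047) and the forkhead factor Foxa2 (-0.74 ± 0.16, 0.0446) fell in the mutant. Over this step in the wild type Met fell (-1.33 ± 0.22, adjusted p = 0.0172), and Fgfr2 was -1.09 (adjusted p = 0.0557). The part of other lung cells in the values of the 19 genes was not tested.

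Many genes of the transitional state between type 2 and type 1 cells rose in both genotypes. Of 14 tested, 9 were higher and 1 lower in the mutant at 72 h relative to 0 h (median 1.5), and 8 were higher and none lower in the wild type (median 1.22, against -0.05 over all genes). The shares of all probe sets called were again 21.5% and 7.83%. With the wild type at 0 h as baseline, 9 of the 14 were higher and none lower in the mutant at 72 h. In the mutant the 4 with the smallest p were the cell cycle inhibitor Cdkn1a (3.87 ± 0.24, adjusted p = 8.07e-06), the keratin Krt8 (2.23 ± 0.20, 7.5e-05), Ccn2 (2.16 ± 0.21, 9.54e-05) and Plaur (1.93 ± 0.22, 0.000267). In the wild type they were Cdkn1a (3.13 ± 0.20, adjusted p = 3.06e-05), Ccn2 (2.25 ± 0.17, 6.36e-05), Plaur (1.61 ± 0.18, 0.000635) and Krt8 (1.28 ± 0.17, 0.00152). Between genotypes at 72 h, 1 of the 14 was called, where 0.82% of all probe sets were called. It was Sfn, an epithelial 14-3-3 protein that squamous epithelium also makes, lower in the mutant (-1.55 ± 0.24, adjusted p = 0.0129). The 5 squamous markers on type A summed to 1652 to 2132 on the mutant 72 h arrays and 1461 to 2283 on the wild type 72 h arrays. Other injured cells express these genes too.

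Of 8 ligands of the receptor encoded by Ager, 5 were tested. S100a8 and S100a9 were lower in the mutant than in the wild type at 48 h (log2 -2.55 ± 0.15, adjusted p = 6.47e-05, and -2.34 ± 0.20, 0.000594) and at 72 h (-2.05 ± 0.15, 0.000112, and -1.75 ± 0.20, 0.00342). The sum of 8 neutrophil markers was 6548 to 7839 on the mutant 72 h arrays and 17797 to 18486 on the wild type 72 h arrays. The 8 include both ligands, so the neutrophil sums given here follow the ligands themselves. The remaining markers did not share 1 direction at 72 h. Mutant and wild type group means were 348 and 998 for Mmp8, 122 and 299 for Cxcr2, and 76 and 530 for Ngp. They were 486 and 540 for Camp, 1443 and 1429 for Csf3r, and 1255 and 632 for Ltf. The neutrophil sum at 48 h was 6290 to 6513 in the mutant and 19837 to 20510 in the wild type. At 24 h S100a8 was higher in the mutant (1.26 ± 0.18, adjusted p = 0.0256), with a neutrophil sum of 20658 to 22185 in the mutant and 10446 in the wild type. The part of neutrophil number in these values was not tested. Ager itself had no called genotype difference at any of these times.

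Genes of surfactant clearance, which macrophages carry out, had 9 tested of 11. At 72 h relative to 0 h, 3 were higher and 1 lower in the mutant and 3 were higher and none lower in the wild type, with 21.5% and 7.83% of all probe sets called. Set against the wild type at 0 h, 2 were higher and none lower in the mutant. Cd14 was higher in both (1.23 ± 0.19, adjusted p = 0.00116 in the mutant, and 1.09 ± 0.15, 0.00217 in the wild type). Cd14 in the mutant at 72 h was 0.68 ± 0.15 relative to the wild type at 0 h (adjusted p = 0.0149). The sum of 6 macrophage markers on the mutant arrays was 13393 at 0 h, 15632 to 16195 at 24 h, 16505 to 16973 at 48 h and 23229 to 25003 at 72 h. On the wild type arrays it was 13764 to 14094 at 0 h, 18900 at 24 h, 20794 to 22012 at 48 h and 21036 to 24184 at 72 h. Chil3 was the largest part, with means at 0 and 72 h of 10668 and 18387 in the mutant and 10394 and 17851 in the wild type. Fabp4 fell between these times in both genotypes (833 to 313 and 449 to 282). Adgre1 fell in the wild type (400 to 282) and rose in the mutant (163 to 429). Cd68, Marco and Mrc1 were higher at 72 h in both. The part of macrophages in the values of the clearance genes was not tested.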

How the data were processed

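Whole-lung RNA of 8 groups was measured on arrays of types A, B and C. The deposited values are linear intensities of probe sets, as read from the files; the authors' tool, build and scaling were not given in the sources used here. All arrays had a 2%-trimmed mean of intensity between 800.2 and 800.5, and that scale was kept. Symbols came from the platform annotation. The 10 genes and all role and marker lists were chosen with earlier results of these data known.

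To every intensity the 25th percentile of its array type was added (78.1 for A, 126 for B, 106 for C) before log2. Probe sets above the 40th percentile (195, 272 and 211) on at least 2 arrays, controls left out, were tested. Each array type had its own limma 3.58.1 fit (R 4.3.3) of all 8 groups, with two-sided p-values adjusted by Benjamini-Hochberg over all types, and it was tested on simulated data. A lone array of a group takes its spread from the other groups. The 17 comparisons are oxygen times against 0 h, successive oxygen times, genotypes at each time and averaged over oxygen, and genotype differences of the changes 0 to 72 h and 48 to 72 h. The number of arrays limits the precision. Replicates correlated at 0.883 to 0.972 and held no identical values.

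All probe sets of the 10 genes are reported. From each list at most 4 genes with the smallest p per comparison are named, by their brightest probe set. Likeness is the Pearson correlation over arrays of one type, and was added for Slc34a2, Abca3 and Hopx after values were seen. Alternatives were a floor for the added value, quantile normalization, no filter, a 60th percentile filter, fits restricted to the compared groups, eBayes with trend and robust options, a replicate block, leaving out each replicate, and the wild type at 0 h as the mutant's baseline. Replicate numbers were not treated as pairs in the main fit, because the labels do not say that they mark a shared animal, batch or day. Same-numbered samples deviated together in part (correlations of -0.0983 to 0.368). The correlation was over 0.1 in 7 of 15 pairs of groups on type A, 18 of 28 on type B and 2 of 28 on type C. The median correlation was 0.0959 on type A, 0.126 on type B and 0.0399 on type C. On type C the Gapdh ratio and the brighter Sftpa1 probe set were higher in the b than in the a replicate of every group. The replicate block allows for such a shared deviation, and its source was not tested.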

Additional observations from a re-analysis of the deposited data

Results flagged for a closer look

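Hopx was singled out by a test of the difference between genotypes in the change from 0 to 72 h of oxygen. The value, mutant minus wild type, was -1.56 on the log2 scale (adjusted p = 0.048 in limma). In the mutant, Hopx had intensities of 7130 and 6007 at 72 h and 23424 at 0 h, the last from 1 array. In the wild type it had 12737 and 13940 at 72 h and 17272 and 14815 at 0 h. The mutant 0 h array is the one with raised squamous and skeletal muscle markers. At 72 h alone, which does not use it, the difference between genotypes was -1.02 (adjusted p = 0.0554), with no overlap of arrays. Of 7 other settings of the processing the interaction passed in 3, and of 15 fits that left out 1 replicate it passed in 1.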

How the results depend on the processing

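Of the 20 calls among the 13 probe sets, 19 held with values floored at the 25th percentile, 19 under quantile normalization, 19 without the filter, 20 with a filter at the 60th percentile, 20 with eBayes using trend and robust, 19 with the replicate number as a block, and 5 in fits restricted to the compared groups, which have few residual degrees of freedom. No call changed direction. In the restricted fit of the mutant at 24 h, Abca3 (B probe set) and Pdpn kept their calls. Sftpd (log2 1.21), with 1 array at mutant 0 h, was new there. In the restricted fit of the mutant at 72 h, which has that same lone 0 h array on type A, Pdpn and Hopx kept their calls. In these restricted fits, called probe sets numbered 0 in the wild type at 24 h, 1 at 48 h and 0 at 72 h, 3 in the mutant at 24 h, 0 at 48 h and 0 from 48 to 72 h, and 0 for the genotype difference in the change from 0 to 72 h. That difference also had 0 calls with the floor, without the filter and with the replicate block (Hopx -1.54, adjusted p = 0.0543), which ended no other call. In the mutant at 48 h there were 4 under quantile normalization, 4 with the 60th percentile and 5 with trend and robust, and at 72 h 5 with trend and robust. Mutant against wild type at 72 h had 1 call under each of these 3 settings, and the mean over oxygen times 1 under quantile normalization and 1 with trend and robust. At 24 h in the mutant, Sftpa1 (brighter C probe set) was newly called under quantile normalization, the 60th percentile, the block and trend and robust, and Sftpc under these but the block. The block also added Slc34a2 at 48 h and Sftpa1 (brighter C probe set) at 72 h. Against the wild type at 0 h, the mutant had 4 calls at 24 h and 1 at 48 h, and at 72 h Pdpn, Hopx and Slc34a2 were called. Leaving out 1 replicate gave 0 to 1 calls in the wild type at 24 h, 0 to 2 at each later time, 3 to 8 in the mutant at 24 h, 0 to 3 at 48 h, 0 to 2 at 72 h, 0 to 3 from 48 to 72 h, 0 to 1 between genotypes at 72 h and for the change from 0 to 72 h, and 0 in the other comparisons. Without mutant 0 h replicate 1b no type A value at mutant 0 h remains, so those comparisons then hold types B and C only. The causes of these shifts were not tested. With 1 or 2 arrays per group, changes well under 2-fold were often not detectable, and Sftpd was too dim for a fold.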

Other observations

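Some genes listed as regulators of the alveolar epithelium rose at 24 h in both genotypes. In RNA of whole lung the cells that made them were not identified. The sum of 9 endothelial markers in the mutant was 35187 at 0 h and 71770 to 87168 at 24 h. In the wild type the endothelial sum was 47271 to 50706 at 0 h and 70309 at 24 h. The part of endothelial and other cells in the values of the listed regulators was not tested. Of the 19 transcription factors and receptors, 13 were higher and 1 lower in the mutant relative to 0 h (median log2 difference 1.16), and 3 were higher and none lower in the wild type (median 0.51, against -0.04 over all genes). Over all probe sets, 12.2% were called higher and 12.1% lower in the mutant at 24 h, and 0.962% higher in the wild type. With the wild type at 0 h as baseline, where 10.2% of all probe sets were called, 10 of the 19 were higher and 1 lower in the mutant. The 4 with the smallest p in the mutant were Adgrf5 (1.75 ± 0.15, adjusted p = 2.96e-05), Cebpb (1.91 ± 0.22, 0.000271), Cebpa (1.97 ± 0.25, 0.000499) and Met, the hepatocyte growth factor receptor (1.40 ± 0.22, 0.000839). The 3 called in the wild type were Met (1.28 ± 0.22, adjusted p = 0.013), Cebpb (1.22 ± 0.22, 0.0241) and Adgrf5 (0.74 ± 0.15, 0.0321). All these p-values are from limma. Adgrf5 and Cebpa were lower in the mutant than in the wild type at 0 h, by -0.82 ± 0.15 (adjusted p = 0.0162) and -1.25 ± 0.25 (adjusted p = 0.0296). The genotype difference in the 24 h change was not tested. Of the 14 transitional genes, 6 were higher and 1 lower in the mutant at 24 h, and 2 were higher and none lower in the wild type, led in both by Cdkn1a (2.21 ± 0.24, adjusted p = 0.000232 in the mutant, and 2.34 ± 0.24, 0.00157 in the wild type). With that baseline 4 of the 14 were higher and none lower in the mutant.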
